A study of Mus musculus with 24 samples.

Results

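The genes examined here are 9 genes of fat breakdown in adipocytes and of the receptors that hold it back: Hcar1, Hcar2, Adora1, Acvr1c, Pnpla2, Lipe, Mgll, Abhd5 and G0s2. They were chosen by gene name, and make up 9 of the 37606 genes counted. Hcar1 and Acvr1c were picked on their higher counts after angiotensin II at 2 months in these same libraries. Their values in every comparison of the 2-month libraries are therefore given as a description, with no test. The change of the effect from 4 to 6 months also draws on those libraries, for the spread shared by all groups. The other 7 were taken for their function. RNA came from whole aortic homogenates of wild-type mice. The mice had carried an osmotic minipump under the skin for 2 weeks that released either angiotensin II (Ang II), a vasoconstrictor and pressor hormone, or only vehicle (sham). Aortas were collected 2, 4 or 6 months after the infusion, with 4 libraries for each of the 6 combinations of treatment and time. The sources used here do not give the age, sex or strain of the mice. They also do not say that replicates came from separate animals, and the p-values then measure only the spread between samples, possibly a technical one.

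Adipocytes store fat as triglyceride in lipid droplets and release it by lipolysis, in which adipose triglyceride lipase (ATGL), hormone-sensitive lipase and monoacylglycerol lipase remove the fatty acids in turn. Adrenergic signals raise cyclic AMP and activate protein kinase A, which starts the process, and receptors coupled to the inhibitory G protein Gi lower cyclic AMP and slow it. The aorta is wrapped in perivascular adipose tissue, which in mice is rich in brown-like adipocytes. A homogenate can therefore hold RNA of fat cells beside that of the vessel wall. In such bulk samples fewer cells of a type and less RNA per cell cannot be told apart.

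The genes lie on 6 chromosomes (build mm10, mouse). Hcar1 (ENSMUSG00000049241.5, chromosome 5, 123876736 to 123880020, minus strand) and Hcar2 (ENSMUSG00000045502.6, chromosome 5, 123863570 to 123865499, minus strand) are neighbours, with 11236 bases between them. Acvr1c (ENSMUSG00000026834.13) is on chromosome 2, 58267453 to 58357895, minus strand. Adora1 (ENSMUSG00000042429.8, 134199223 to 134235431) and G0s2 (ENSMUSG00000009633.3, 193272161 to 193273217) are on the minus strand of chromosome 1. Pnpla2 (ENSMUSG00000025509.15, 141455198 to 141460743, plus strand) and Lipe (ENSMUSG00000003123.15, 25379527 to 25398710, minus strand) are on chromosome 7. Mgll (ENSMUSG00000033174.17) is on chromosome 6, 88724412 to 88828360, and Abhd5 (ENSMUSG00000032540.16) on chromosome 9, 122351608 to 122381524, both on the plus strand.

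The sequences before the start sites of Hcar1 and Acvr1c are shown because these are the members picked for their 2-month values. They are the 250 bases upstream of the RefSeq start (assembly GRCm38.p6), read 5′ to 3′ on the minus strand, and the capitals mark every CG dinucleotide. The Hcar1 sequence is chr5:123880004-123880253 and the Acvr1c sequence, that of the start site farther upstream of the 2 listed, is chr2:58357759-58358008.
Hcar1: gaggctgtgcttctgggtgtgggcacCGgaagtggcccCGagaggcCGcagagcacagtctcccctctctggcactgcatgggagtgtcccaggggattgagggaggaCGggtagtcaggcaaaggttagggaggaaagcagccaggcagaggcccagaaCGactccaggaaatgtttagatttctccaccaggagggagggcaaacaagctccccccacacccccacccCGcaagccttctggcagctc
Acvr1c: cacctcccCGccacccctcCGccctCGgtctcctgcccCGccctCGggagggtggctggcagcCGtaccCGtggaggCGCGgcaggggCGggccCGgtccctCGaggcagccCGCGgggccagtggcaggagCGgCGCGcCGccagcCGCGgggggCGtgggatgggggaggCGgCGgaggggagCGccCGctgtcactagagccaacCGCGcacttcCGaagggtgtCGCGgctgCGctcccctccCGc
The Hcar1 stretch held 6 CG dinucleotides and 62.4% G and C, against medians of 6 and 52.4% over 32851 promoters of the same length. The Acvr1c stretch held 32 CG dinucleotides and 79.6% G and C. Promoters of 8 of the 9 genes were matched. In these, 7 motifs were searched on both strands: the full cyclic AMP response element TGACGTCA, its 5-base core TGACG (which the full element contains), the C/EBP site TTGCNNAA, the NR4A site AAAGGTCA, the PPAR direct repeat, the TATA box TATAAA and the SMAD palindrome GTCTAGAC. Of these only TGACG was found, 1 time upstream of G0s2 (246 bases before the start) and 1 time upstream of Abhd5 (128 bases before). The share of all promoters holding TGACG was 17.8%. A match is a description of letters and not of a bound site.

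Total counts per library ranged from 19163673 to 58676098, and every member passed the filter on low counts in every comparison. Counts of single members in single libraries lay between 127 (Hcar2) and 106917 (Pnpla2). The 6-month libraries looked like another kind, which no label states. Mitochondrial transcripts took 31.7% to 59.3% of their counts against 7.72% to 16.3% earlier. Rn7sk, a nuclear RNA without a poly(A) tail, lay at 2182 to 3771 against 2.05 to 15.4 CPM (read counts scaled to the library total). The 9 genes together took 0.0618% to 0.246% of the counts at 6 months and 0.518% to 0.701% before. Between 6 months and the earlier times, the time and such a difference in the kind of library cannot be told apart. Adipocyte markers (12 genes) summed to 15960 to 29758 TMM-normalised CPM at 2 and 4 months and to 7262 to 10504 CPM at 6 months, while smooth muscle markers (8 genes) summed to 541 to 6079 CPM. Markers of skeletal muscle and airway epithelium (6 genes each) summed to 36.5 to 8289 and 2.02 to 7756 CPM. At 6 months the skeletal muscle sum was 44.4 to 515 CPM in sham and 486 to 7057 CPM after Ang II. All 6 fold changes were positive there (0 called by edgeR, 6 at an unadjusted p under 0.05, 1 by DESeq2). The part of these tissues in the members' values was not tested. A pair of sham libraries stood apart. Replicate 4 at 2 months had 73.3 Lipe reads per 100 Pnpla2 reads, where the other 23 libraries had 37.5 to 54.9. Replicate 4 at 4 months had 429 CPM of Ucp1, the uncoupling protein of brown fat, where the other 3 sham libraries had 1921 to 2584 CPM. For several members the values without these libraries are given beside the results. Exons of Adora1, Lipe, Abhd5, Acvr1c and Mgll overlap a gene on the opposite strand over 1162, 918, 950, 168 and 167 bases. The sources used here do not give the strand setting of the counting, so such reads cannot be assigned with certainty. The largest count of any of these partners in a library was 323, for Mybph beside Adora1.

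Per kilobase of exon, Pnpla2 was the most abundant of the 9 genes in all 6 groups, and its libraries did not overlap those of the next gene in any group. In sham aortas at 2 months its level was 764 ± 109 CPM per kilobase (SD, n = 4). Lipe, G0s2 and Mgll followed at 199 ± 36.1, 154 ± 73.0 and 138 ± 39.3 CPM per kilobase, and neighbours in that order overlapped. The remaining 5 genes were at lower levels: Abhd5 at 13.6 ± 2.39, Hcar1 at 12.8 ± 1.54, Adora1 at 8.02 ± 3.35, Hcar2 at 7.61 ± 2.09 and Acvr1c at 6.36 ± 0.485 CPM per kilobase, each overlapping its neighbour. In Ang II aortas at 2 months Hcar1 stood at 35.0 ± 3.94 CPM per kilobase, the lowest of its libraries above the highest of Hcar2, the next gene in the order, at 15.8 ± 6.05. In Ang II aortas at 6 months Hcar1 was at 8.28 ± 2.45 CPM per kilobase, below Acvr1c, Adora1 and Abhd5 in the mean and overlapping its neighbours.

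**Figure D1:**
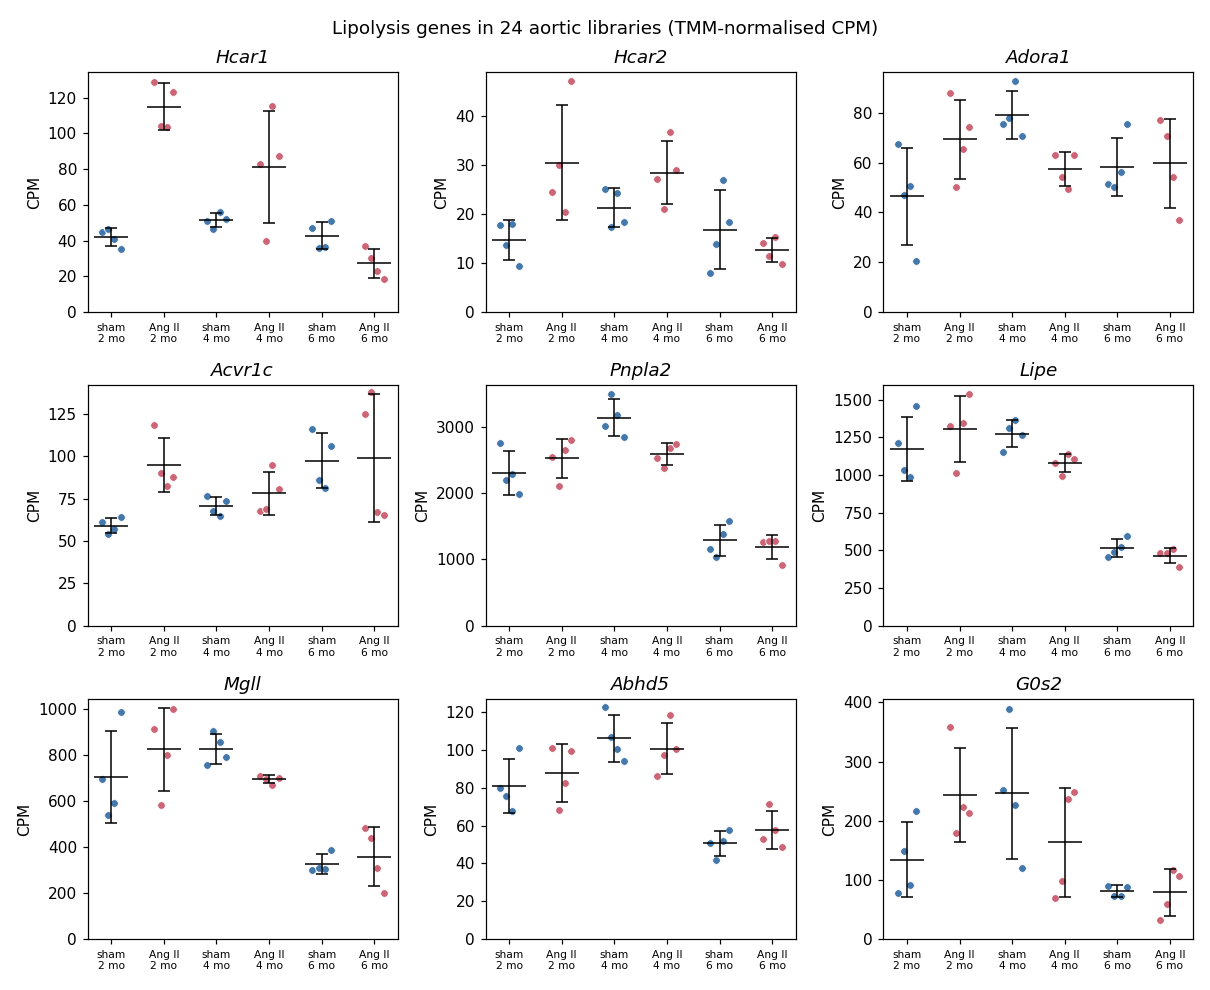
Level of each of the 9 genes (CPM, linear axis from 0) in each of the 24 libraries, by treatment and months (mo) after the infusion; points are libraries (blue sham, red Ang II), the horizontal line is the mean and the bar the SD of 4 libraries. Hcar1 after Ang II lies at 104 to 129 CPM at 2 months, and 18.6 to 36.9 CPM at 6 months.

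Hcar1 encodes the lactate receptor GPR81, a Gi-coupled receptor of adipocytes through which lactate restrains lipolysis. At 2 months it read 44.9, 46.6, 41.0 and 35.2 CPM in the 4 sham aortas and 129, 104, 104 and 123 CPM in the 4 Ang II aortas. All 4 Ang II libraries were higher than all 4 sham libraries, with a fold of 2.79 (log2 ratio 1.48 with an SE of 0.123); this contrast chose the gene. At 4 months, which did not choose it, the sham libraries read 50.7, 46.4, 56.1 and 52.2 CPM and the Ang II libraries 82.9, 39.6, 115 and 87.1 CPM. Of the Ang II libraries 3 were above every sham library, and replicate 2 was below every one. The log2 fold change was 0.67 (SE 0.259, edgeR adjusted p = 0.26), and without Ang II replicate 2 it was 0.90 (edgeR adjusted p = 0.0767). At 6 months the sham libraries read 47.2, 36.0, 36.3 and 50.9 CPM and the Ang II libraries 36.9, 30.2, 23.0 and 18.6 CPM. There 3 of the 4 Ang II libraries were below every sham library, and the log2 fold change was -0.65 (SE 0.208, edgeR adjusted p = 0.922, unadjusted p = 0.0128).

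Hcar1 was thus higher in Ang II aortas on average at 2 and 4 months and lower at 6 months. The difference between its effects at 6 and 4 months, fitted over all 24 libraries, was -1.31 on the log2 scale (SE 0.327). The edgeR quasi-likelihood test gave an unadjusted p of 0.00066 and an adjusted p of 0.177. The 2-month libraries, which chose the gene, enter this fit through the shared spread. The p-values of Hcar1 in this contrast are thus not free of that choice and are given as a description. DESeq2 gave -1.30 with an adjusted p of 0.0177, and edgeR without Ang II replicate 2 at 4 months gave -1.53 with an adjusted p of 0.0319. Only these 2 of the other settings passed, and 21 did not. The values ran from -1.37 to -0.82 over 7 settings and from -1.53 to -1.09 with a library left out. In this comparison 0.0468% of all 19218 genes tested were called, and none of the 9 genes was among them by edgeR (1 of 9 at an unadjusted p under 0.05, against 11.7% of all genes; 1 called by DESeq2, against 1% of all genes).

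Hcar2 encodes GPR109A, the Gi-coupled receptor for beta-hydroxybutyrate and niacin, present on adipocytes and on macrophages and neutrophils. At 2 months it read 17.8, 13.7, 17.9 and 9.39 CPM in sham and 24.5, 30.0, 20.4 and 47.0 CPM after Ang II. Every Ang II library was above every sham library, and replicate 4 was the highest of the Ang II group and the lowest of the sham group. At 2 months 2.38% of all genes tested had every Ang II library above every sham library. The fold was 2.11 (log2 ratio 1.07 with an SE of 0.288), which did not pass in edgeR (adjusted p = 0.141) and passed in DESeq2 (adjusted p = 0.0135), which called 4.62% of the genes it tested. Without sham replicate 4 the log2 fold change was 0.91 (edgeR adjusted p = 0.231). In the authors' deposited table the log2 fold change was 1.07 with an adjusted p of 0.0151. At 4 months the sham libraries read 25.03, 17.3, 24.2 and 18.4 CPM and the Ang II libraries 27.1, 21.0, 36.7 and 28.8 CPM, with 3 of 4 Ang II libraries above every sham library (log2 ratio 0.44 with an SE of 0.176, adjusted p = 0.281 in edgeR). At 6 months the sham libraries ranged from 7.88 to 27.0 CPM and the Ang II libraries, which lay within that range, from 9.78 to 15.3 CPM (log2 ratio -0.42 with an SE of 0.348, adjusted p = 1.0 in edgeR).

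Macrophage markers also differed on average between sham and Ang II libraries. Their median log2 fold changes were 0.69, 0.98 and -0.32 at 2, 4 and 6 months. Of 10 such genes 3 rose at 2 months (Cd68, Adgre1 and Trem2) and 3 at 4 months (Cd68, Trem2 and Mpeg1), all 10 fold changes were positive at both times, and all 10 were negative at 6 months, with 0 called by edgeR (2 at an unadjusted p under 0.05; 0 in DESeq2). Under 16 other settings the 4-month call of Cd68 was lost in 7 and those of Trem2 and Mpeg1 in 10 each, among them the adipocyte covariate, the replicate block and leaving out any of sham replicates 1 and 2 or Ang II replicates 2, 3 and 4. At 2 months the calls of Cd68, Trem2 and Adgre1 were lost in 8, 7 and 3 of 16. Their summed level was 331 to 588 CPM in sham and 566 to 938 CPM after Ang II at 2 months, 344 to 568 and 659 to 1091 CPM at 4 months, and 777 to 1254 and 694 to 1066 CPM at 6 months. Cd68, a lysosomal protein of macrophages, had log2 fold changes of 1.51 at 2 months (edgeR adjusted p = 0.0280) and 1.76 at 4 months (edgeR adjusted p = 0.0134). The 8 neutrophil markers summed to between 1.89 and 16.0 CPM in every library. The part of macrophages in the Hcar1 and Hcar2 values was not tested.

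Adora1 encodes the adenosine A1 receptor, another Gi-coupled brake on adipocyte lipolysis. At 2 months it read 67.5, 47.0, 50.6 and 20.6 CPM in sham and 87.7, 50.1, 65.4 and 74.2 CPM after Ang II, and the groups overlapped (log2 ratio 0.60 with an SE of 0.320, adjusted p = 0.589 in edgeR). Without sham replicate 4, the lowest library, the log2 fold change was 0.36 (edgeR adjusted p = 0.584). At 4 months the sham libraries read 75.4, 78.0, 92.8 and 70.6 CPM and the Ang II libraries 63.2, 54.2, 49.3 and 63.1 CPM. All 4 Ang II libraries were below all 4 sham libraries, by 26.3% in the fitted mean (log2 ratio -0.44 with an SE of 0.119). The difference did not pass in edgeR (adjusted p = 0.129, and 0.078 without sham replicate 4), and passed in DESeq2 (adjusted p = 0.0136) and in the authors' deposited table (log2 fold change -0.46, adjusted p = 0.0140). At 6 months the sham libraries ranged from 49.98 to 75.4 CPM and the Ang II libraries from 37.0 to 76.9 CPM (log2 ratio 0.03 with an SE of 0.228, adjusted p = 1.0 in edgeR). The Ang II effect on Adora1 at 4 months minus that at 2 months was -1.04 on the log2 scale (SE 0.371, edgeR adjusted p = 0.384).

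Acvr1c encodes ALK7, a type I receptor of the activin family that is enriched in adipocytes and, with ligands such as activin B and GDF3, is known to lower lipase expression. At 2 months it read 61.5, 54.1, 56.8 and 64.1 CPM in sham and 119, 90.1, 82.6 and 87.9 CPM after Ang II. All Ang II libraries were above all sham libraries, replicate 1 the highest, with a fold of 1.64 (log2 ratio 0.71 with an SE of 0.130); this contrast chose the gene. At 4 months it read 76.5, 67.6, 64.6 and 73.6 CPM in sham and 67.6, 69.1, 94.7 and 81.0 CPM after Ang II, and the groups overlapped (log2 ratio 0.16 with an SE of 0.107, adjusted p = 0.490 in edgeR). At 6 months the sham libraries lay between 81.4 and 116 CPM. The Ang II libraries there split into a pair at 125 and 138 CPM and a pair at 67.2 and 65.4 CPM, on either side of the sham range (log2 ratio 0.02 with an SE of 0.253, adjusted p = 1.0 in edgeR).

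**Figure D2:**
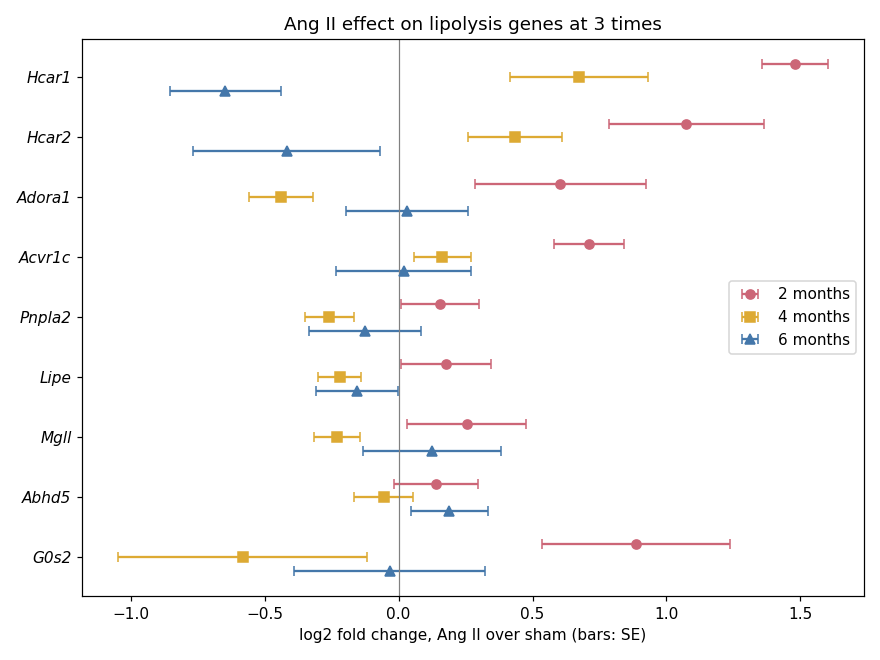
Log2 fold change of Ang II over sham (horizontal axis, bars SE) for the 9 genes at 2 (circles), 4 (squares) and 6 months (triangles), 4 libraries a group. All 9 estimates lie above 0 at 2 months, the contrast that chose Hcar1 and Acvr1c. Hcar1 moves from 1.48 at 2 months to 0.67 at 4 months and -0.65 at 6 months. Pnpla2, Lipe and Mgll lie at -0.26, -0.22 and -0.23 at 4 months.

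Pnpla2 encodes ATGL, which removes the first fatty acid from stored triglyceride. At 2 months it read 2763, 2192, 2288 and 1986 CPM in sham and 2542, 2108, 2648 and 2803 CPM after Ang II, and the groups overlapped (log2 ratio 0.15 with an SE of 0.146, adjusted p = 0.832 in edgeR). At 4 months it read 3013, 3497, 3184 and 2842 CPM in sham and 2533, 2378, 2685 and 2746 CPM after Ang II. Every Ang II library was below every sham library, and the fitted mean was lower by 16.4% (log2 ratio -0.26 with an SE of 0.0928, adjusted p = 0.232 in edgeR). At 6 months the ranges were 1038 to 1574 CPM in sham and 915 to 1283 CPM after Ang II (log2 ratio -0.12 with an SE of 0.209, adjusted p = 1.0 in edgeR).

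Lipe encodes hormone-sensitive lipase, which acts mainly on diacylglycerol and is a target of protein kinase A. At 2 months it read 1212, 1037, 986 and 1457 CPM in sham and 1324, 1014, 1347 and 1539 CPM after Ang II (log2 ratio 0.18 with an SE of 0.167, adjusted p = 0.829 in edgeR; 0.30 and 0.529 without sham replicate 4, the highest sham library). At 4 months it read 1157, 1311, 1366 and 1270 CPM in sham and 1080, 997, 1140 and 1106 CPM after Ang II, again with no overlap (log2 ratio -0.22 with an SE of 0.0803, adjusted p = 0.238 in edgeR). Mgll encodes monoacylglycerol lipase, which completes the release of glycerol. Its 4-month values were 753, 903, 853 and 791 CPM in sham and 709, 695, 668 and 701 CPM after Ang II, the Ang II libraries close together and all below the lowest sham library (log2 ratio -0.23 with an SE of 0.0845, adjusted p = 0.243 in edgeR). At 2 months Mgll read 694, 537, 590 and 984 CPM in sham and 910, 582, 800 and 998 CPM after Ang II, and overlapped (log2 ratio 0.25 with an SE of 0.223, adjusted p = 0.817 in edgeR). Sham replicate 4 was the highest sham library, and without it the log2 fold change was 0.46 (edgeR adjusted p = 0.395). At 6 months Lipe lay between 392 and 597 CPM and Mgll between 198 and 480 CPM over both groups, with overlap (edgeR adjusted p = 1.0 for each).

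At 4 months, then, Adora1 and the 3 lipase genes were lower in every Ang II library than in every sham library, as were 7.02% of all genes tested. By edgeR 0 of the 9 genes passed, where 0.707% of 16127 genes did, and 6 of 9 had an unadjusted p under 0.05, where 15.5% of all genes did. DESeq2, which called 6.56% of the genes it tested and 4.83% in the lower direction, called these 4 lower, with adjusted p of 0.0136 for Adora1, 0.0315 for Lipe, 0.0363 for Mgll and 0.0406 for Pnpla2, and in the authors' deposited table the same 4 had adjusted p of 0.0140, 0.0312, 0.0363 and 0.0401. The summed level of 8 brown adipocyte markers was 1144 to 4047 CPM in sham libraries and 1403 to 1587 CPM in Ang II libraries at 4 months, and all 8 fold changes were negative (median -0.77; 0 called by edgeR, lowest adjusted p 0.0593, 5 at an unadjusted p under 0.05; 3 called by DESeq2). Sham replicate 4 had the lowest of these sums and the lowest Pnpla2 and Adora1 of the sham group, so leaving it out raises the sham mean of both. Without it the log2 fold changes were -0.31 for Pnpla2 (edgeR adjusted p = 0.0952), -0.50 for Adora1, -0.23 for Lipe and -0.25 for Mgll. The part of brown adipocytes in these values was not tested. Adipocyte markers summed to 19320 to 22124 CPM in sham and 21194 to 27602 CPM after Ang II at 4 months, so the groups overlapped and the mean after Ang II was not the lower one. Per 100 adipocyte marker reads, Lipe read 5.29 to 6.79 in sham and 4.13 to 5.09 after Ang II, and Pnpla2 12.8 to 18.1 and 9.73 to 12.2. Mgll read 3.44 to 4.67 in sham and 2.42 to 3.35 after Ang II, and Adora1 0.319 to 0.432 and 0.179 to 0.298. None of these 4 overlapped, while Hcar1, Hcar2, Acvr1c, Abhd5 and G0s2 did. At 2 months the same measure also put Lipe lower without overlap (5.67 to 6.19 in sham, 4.92 to 5.40 after Ang II), and Abhd5 (0.401 to 0.429 and 0.331 to 0.376), although the fitted CPM ratios of both were above 0 then. Pnpla2 overlapped at 2 months (8.44 to 14.3 and 9.42 to 10.6), as did Mgll and Adora1. The marker sum that divides these reads was itself higher in the mean after Ang II. It was 25403 against 19433 CPM at 2 months and 23819 against 21204 CPM at 4 months. A gene of unchanged CPM would thus also read lower in this measure. The share of all genes without overlap in it was not computed.

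Abhd5 and G0s2 encode the partners of ATGL, the first its co-activator CGI-58 and the second its inhibitor. At 2 months Abhd5 read 79.9, 75.4, 67.9 and 101 CPM in sham and 101, 68.1, 82.5 and 99.3 CPM after Ang II, and at 4 months 123, 107, 100 and 94.0 and then 85.9, 97.5, 119 and 101 CPM. The groups overlapped at each time, with log2 fold changes of 0.14 (SE 0.157), -0.06 (SE 0.109) and 0.19 (SE 0.144) at 2, 4 and 6 months and edgeR adjusted p of 0.875, 0.813 and 1.0. Without sham replicate 4 the 2-month value was 0.26 (edgeR adjusted p = 0.579). G0s2 spread widely between replicates. At 2 months it read 77.6, 149, 91.4 and 217 CPM in sham and 359, 178, 223 and 214 CPM after Ang II (log2 ratio 0.89 with an SE of 0.350, adjusted p = 0.387 in edgeR; 1.22 and 0.162 without sham replicate 4, the highest sham library). At 4 months it read 252, 388, 227 and 120 CPM in sham and 70.2, 98.1, 237 and 248 CPM after Ang II (log2 ratio -0.58 with an SE of 0.466, adjusted p = 0.563 in edgeR; -0.81 and 0.402 without sham replicate 4, the lowest sham library). Both pairs of groups overlapped, and at 6 months the sham libraries lay at 72.1 to 90.2 CPM inside the Ang II range of 32.3 to 117 CPM (log2 ratio -0.03 with an SE of 0.357). The interval that these errors leave is wide, and no equal level is shown by it.

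At 2 months all 9 fold changes were positive, with a median of 0.60, and the median over all genes tested was 0.01. This contrast chose Hcar1 and Acvr1c, so nothing is read from the members' count or from their median there. The log2 fold changes of the 7 genes taken for function ran from 0.14 (Abhd5) to 1.07 (Hcar2). Of 16421 genes 1.81% were called. Of the 7 genes taken for function, 0 passed in edgeR (2 at an unadjusted p under 0.05, against 10.8% of all genes). DESeq2 called Hcar2 of the 7, and limma voom, which called 3.83% of all genes, called G0s2. Cell type markers differed between the same libraries. The 12 adipocyte markers summed to 19433 ± 3188 CPM in sham and 25403 ± 4090 CPM after Ang II (9 of 12 positive, 0 called by edgeR), the 8 smooth muscle markers to 4504 ± 1278 and 1135 ± 352 CPM (SD, n = 4). With the adipocyte score as a covariate the 2-month log2 fold changes of Lipe, Mgll and Abhd5 were -0.084, -0.14 and -0.16. The part of smooth muscle in the members' values was not tested. At 4 months 3 fold changes were positive and 6 negative (median -0.22, all genes 0.04), and at 6 months 4 and 5 (median -0.03, all genes -0.03). At 6 months 0% of 19343 genes were called by edgeR (976, or 5.05%, at an unadjusted p under 0.05; 63, or 0.326%, by DESeq2, none of them a member). For the change of the Ang II effect from 2 to 4 months all 9 estimates were negative, from -0.19 for Abhd5 to -1.46 for G0s2; Hcar1 and Acvr1c, at -0.79 and -0.54, are part of the choice. Of the other 7, 0 passed in edgeR (2 at an unadjusted p under 0.05, against 9.29% of all genes; 0 in DESeq2, against 0.922%), and 0.0052% of 19218 genes did. Limma voom, which called 2.47% of all genes, gave -2.00 for G0s2 in this contrast (adjusted p = 0.0499). The 2- and 4-month effects enter this contrast with the same libraries as above and are no separate evidence.

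Within sham aortas, all 9 genes were higher on average at 4 than at 2 months, where the median log2 fold change over all genes was -0.02. Hcar1 and Acvr1c were picked on a contrast with the same 2-month sham libraries, so nothing is read from that count. The share of all genes that were higher was not computed. Pnpla2 in all 4 sham libraries at 4 months was above all 4 at 2 months (log2 ratio 0.41 with an SE of 0.137, adjusted p = 0.203 in edgeR; 0.44 and 0.0214 in DESeq2), and so was Adora1 (0.74 with an SE of 0.303, adjusted p = 0.286 in edgeR). Without the 2-month sham replicate 4 these were 0.34 (edgeR adjusted p = 0.232) and 0.49 (edgeR adjusted p = 0.183). For Abhd5 the log2 fold change was 0.36 (SE 0.130, edgeR adjusted p = 0.229; 0.50 and 0.0366 in limma voom). By edgeR 0 of the 7 genes passed, where 0.00619% of 16144 genes did, and 3 had an unadjusted p under 0.05, where 15.8% of all genes did. DESeq2 called 5.77% of the genes it tested and limma voom 4.96%, and 3.3% of all genes had every 4-month sham library above every 2-month one. Markers of other cells differed between these sham libraries too: the 8 smooth muscle markers summed to 4504 ± 1278 CPM at 2 and 1289 ± 783 CPM at 4 months (7 of 8 negative, median -2.03; 0 called by edgeR, 7 at an unadjusted p under 0.05, 7 by DESeq2), and the 8 brown adipocyte markers to 1583 ± 628 and 3060 ± 1324 CPM (7 of 8 positive, median 0.71; 0 called by edgeR, 2 at an unadjusted p under 0.05, 1 by DESeq2). Their part in the members' values was not tested. Within Ang II aortas the same step gave Lipe -0.26 (SE 0.121, edgeR adjusted p = 0.487), Mgll -0.23 (SE 0.147), Pnpla2 0.05 (SE 0.109) and Adora1 -0.25 (SE 0.161), with 0 of the 7 genes called by edgeR (0 at an unadjusted p under 0.05, against 10.7% of all genes; 0 in DESeq2, against 1.84%) and 0.00611% of 16367 genes. Hcar1 and Acvr1c were -0.50 and -0.27 there. These steps share their libraries with the Ang II comparisons above.

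Ratios within a library do not depend on its scaling. Hcar1 read 2.41 to 4.49 per 100 Lipe reads in sham and 7.70 to 10.3 after Ang II at 2 months. That contrast chose Hcar1 and Acvr1c, so their 2-month ratios restate the choice and are a description. The share of all genes without overlap in such a ratio was not computed. At 4 months the ratio was 4.38, 3.54, 4.11 and 4.11 in sham and 7.68, 3.97, 10.1 and 7.87 after Ang II. Replicate 2 alone of the Ang II libraries at 4 months lay in the sham range of this ratio; in CPM it lay below that range. At 6 months the sham libraries held 6.92 to 10.4 and the Ang II libraries 4.52 to 7.66 Hcar1 reads per 100 Lipe reads. Acvr1c read 4.40 to 5.76 per 100 Lipe reads in sham and 5.71 to 8.96 after Ang II at 2 months, where the groups overlapped in this ratio but not in CPM. Per 100 adipocyte marker reads Acvr1c overlapped at 2 months as well (0.272 to 0.356 and 0.295 to 0.450). Its ratio to Lipe was 4.73 to 6.61 in sham and 6.26 to 8.31 after Ang II at 4 months, with overlap, and 13.2 to 28.7 in all 8 libraries at 6 months. Lipe stood lower at 6 months than before while Acvr1c did not: Acvr1c averaged 97.5 ± 16.5 CPM in 6-month and 70.6 ± 5.42 CPM in 4-month sham aortas, and Lipe 517 ± 60.8 and 1276 ± 88.8 CPM (SD, n = 4). This difference goes with the apparent change in the kind of library and cannot be told apart from it. G0s2 per 100 Pnpla2 reads spread from 2.57 to 14.1 over the 24 libraries, while Abhd5 per 100 Pnpla2 reads spread from 2.89 to 5.61.

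**Figure D3:**
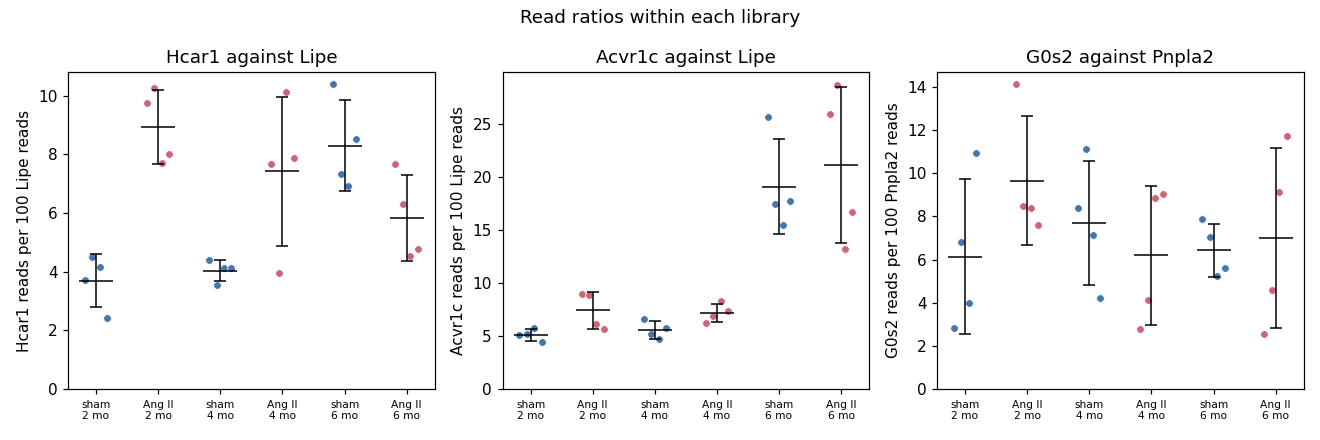
Reads of Hcar1 and Acvr1c per 100 Lipe reads, and of G0s2 per 100 Pnpla2 reads (vertical axes, linear from 0), in each library by group; points are libraries (blue sham, red Ang II), lines means and bars SD of 4. The Hcar1 ratio separates the groups at 2 months (2.41 to 4.49 in sham, 7.70 to 10.3 after Ang II), the contrast that chose Hcar1. The G0s2 ratio overlaps at all 3 times.

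Other genes of the pathway were described from lists by role. Of the other Gi-coupled receptors of adipocytes, 9 were measured at 2 and 4 months and 8 at 6 months, and 0 passed in edgeR (2, 1 and 0 at an unadjusted p under 0.05; 2, 0 and 0 in DESeq2). The lowest edgeR adjusted p was 0.0501, at 2 months. At 2 months 5 were positive and 4 negative (median 0.04), at 4 months 7 and 2 (median 0.22). Ffar2, a short-chain fatty acid receptor and 1 of the 3 genes most like Hcar2, read 6.59 ± 1.95 CPM in sham and 15.2 ± 3.83 CPM after Ang II at 2 months with no overlap (log2 ratio 1.22 with an SE of 0.269, adjusted p = 0.0685 in edgeR). At 4 months it read 7.91 ± 1.73 and 12.96 ± 4.30 CPM, also with no overlap (0.73 with an SE of 0.231, adjusted p = 0.184 in edgeR). Of all genes tested, 2.38% had every Ang II library above every sham library at 2 months. That share was not computed at 4 months. Of 21 genes of the lipolytic receptors and the cyclic AMP arm, Adcy5, an adenylyl cyclase, fell at 2 months (log2 ratio -1.08 with an SE of 0.174, adjusted p = 0.0210 in edgeR) and none rose. At 4 and 6 months 0 of the 21 passed in edgeR (6 and 0 at an unadjusted p under 0.05; 5 and 0 in DESeq2). Smooth muscle markers fell beside it at 2 months, 7 of 8 of them, from summed levels of 3220 to 6079 CPM in sham to 817 to 1616 CPM after Ang II, and their part in the Adcy5 value was not tested. Of 12 genes of the insulin arm, which opposes lipolysis, Irs2, an insulin receptor substrate, rose at 2 months (log2 ratio 1.98 with an SE of 0.392, adjusted p = 0.0452 in edgeR), from 19.8 to 39.6 CPM in sham to 71.5 to 205 CPM after Ang II, and the other members of the list did not pass. The Irs2 call was lost when any 1 of the 8 libraries was left out, and the Adcy5 call in 5 of 16 other settings. Of 13 measured activin ligands, antagonists, receptors and SMADs around ALK7, Inhba, the activin A subunit, and Fstl3, an activin-binding antagonist, fell at 2 months (log2 fold changes -1.71, SE 0.285, and -2.26, SE 0.283, edgeR adjusted p = 0.0231 and 0.00897). The Inhba call was lost in 4 of 16 other settings and the Fstl3 call in 0. At 4 and 6 months 0 of that list passed in edgeR (1 and 1 at an unadjusted p under 0.05; 0 and 0 in DESeq2).

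Lipid droplet proteins and lipase partners (18 genes) gave 0 calls in edgeR at each time (2, 8 and 2 at an unadjusted p under 0.05; 1, 6 and 0 in DESeq2). Their median log2 fold change was 0.10 at 2 months, -0.23 at 4 months (14 of 18 negative) and 0.02 at 6 months. Of 17 genes of fat uptake and re-esterification, 2 fell at 4 months: Gpd1, which makes the glycerol phosphate backbone, from 2012 ± 248 to 1167 ± 71.3 CPM (log2 ratio -0.76 with an SE of 0.110, adjusted p = 0.0375 in edgeR), and Agpat2, an acyltransferase of triglyceride synthesis, from 412 ± 37.0 to 253 ± 31.5 CPM (-0.68 with an SE of 0.116, adjusted p = 0.0460 in edgeR). In all, 15 of these 17 were negative at 4 months (median -0.25, against 0.04 over all genes), 11 were positive at 2 months (median 0.06) and 15 at 6 months (median 0.21), with 0 called at 2 and 6 months by edgeR (4 and 1 at an unadjusted p under 0.05; 2 and 0 in DESeq2). DESeq2 called 6 of the 17 at 4 months. The edgeR calls of Gpd1 and Agpat2 were lost in 10 and 11 of 16 other settings, among them the adipocyte covariate, the replicate block and leaving out any library but sham replicate 4. The 12 adipocyte markers gave 0 calls in edgeR at each time (3, 4 and 2 at an unadjusted p under 0.05; 0, 4 and 0 in DESeq2), with medians of 0.35, 0.07 and 0.17.

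**Figure D4:**
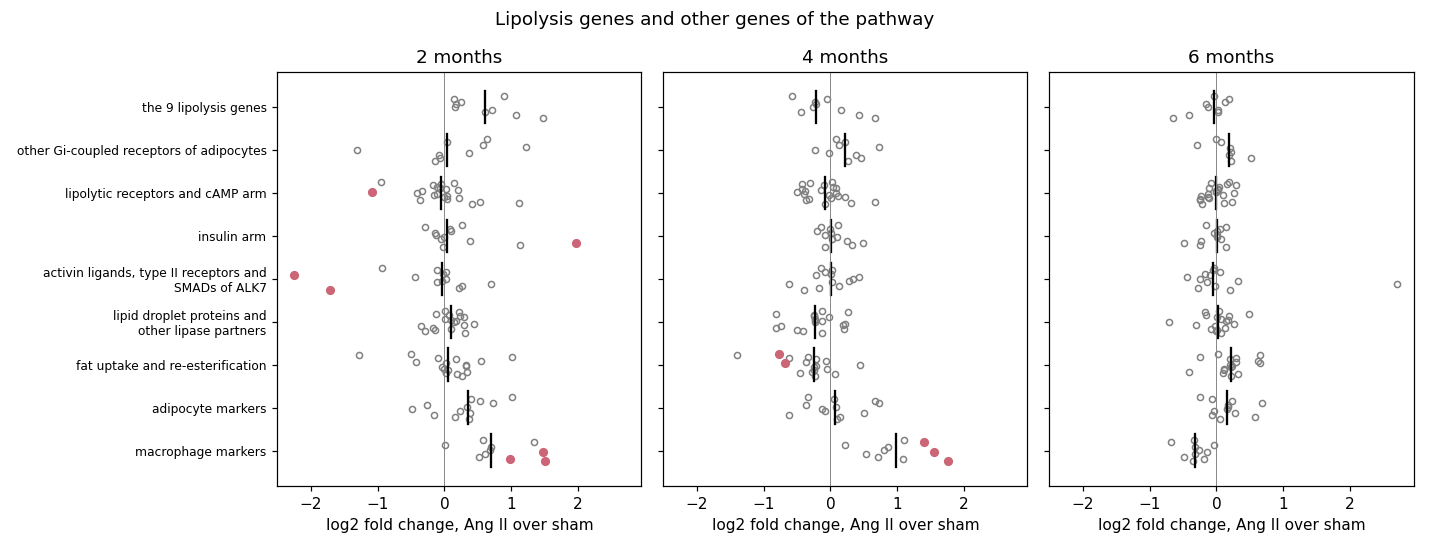
Log2 fold change of Ang II over sham (horizontal axis) for every measured gene of each list (rows) at 2, 4 and 6 months; circles are genes, filled red where the edgeR adjusted p is under 0.05 (not marked for the 9 lipolysis genes), and the vertical bar is the median of the list. The 9 genes have medians of 0.60, -0.22 and -0.03 at the 3 times, and the 2-month contrast chose Hcar1 and Acvr1c among them. Macrophage markers lie above 0 at 2 and 4 months.

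For each member the genes with the most similar pattern were sought among 14113 genes, by Pearson's r of log2 CPM centred on each time over the 24 libraries, which share their depth, treatment groups and fat content. These values describe likeness and carry no p. They were not centred on treatment, so the contrast that chose Hcar1 and Acvr1c enters every likeness of these genes, their closest genes included. The likeness between Hcar1 and Acvr1c is thus in part built in by that choice, and nothing is read from it. The closest to Hcar1 were Apcdd1 (0.86), Rlim (0.84) and Spry4 (0.83), and to Acvr1c were Ctso (0.90), Abca1 (0.89) and B3galt2 (0.87). The closest to Hcar2 were Sesn2 (0.72), Sub1 (0.71) and Ffar2 (0.70), the lowest of the closest values among the 9 genes. Adora1 was closest to Acad11 and Csad (0.89 each), Pnpla2 to Aifm2 (0.89) and Lipe to Rtfdc1 and Ccdc25 (0.84 each). Mgll was closest to Ppp2r5a (0.93), with Plin1, the droplet coat protein that gates lipase access, at 0.92. Abhd5 was closest to Bscl2 and Hacd2 (0.84 each), and G0s2 to Id1 (0.82). Among the members themselves, likeness was 0.77 for Lipe and Mgll, 0.75 for Adora1 and Pnpla2, 0.75 for Hcar1 and Acvr1c and 0.66 for Hcar1 and Hcar2, and -0.01 for Adora1 and G0s2. With the mean log2 level of the 12 adipocyte markers it was 0.77 for Mgll, 0.77 for Abhd5, 0.71 for Acvr1c, 0.61 for Lipe and 0.48 for Hcar1, and between 0.12 and 0.32 for Pnpla2, Adora1, G0s2 and Hcar2.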

How the data were processed

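RNA of 24 mouse aortic homogenates was sequenced, 4 libraries for each treatment and time. The submitters' processing notes name STAR, featureCounts, cutadapt, FastQC and DESeq2, and genome build mm10. The sources used here give no versions, annotation or strand setting. The authors deposited whole-number read counts per gene, and, for every time, a table comparing the treatments that holds a log2 fold change and its raw and adjusted p-value. All 9 genes were matched by name in the 3 tables, and no library was a copy of another.

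Tests used edgeR 4.0.16 under R 4.3.3: filterByExpr (minimum count 10, minimum total 15), TMM, the quasi-likelihood F test within each time (8 libraries) or, for differences of effects, over 24 libraries, and Benjamini-Hochberg adjustment over all genes tested at 0.05. The SE is the log2 fold change over the square root of F. Printed CPM are TMM-normalised over 24 libraries. The fits were tested on simulated data. Other settings were DESeq2 1.42.0 and its size factors, limma 3.58.1 voom with quality weights, no filter, no chromosome M or ribosomal RNA genes, an adipocyte covariate (12 markers), a replicate block, 1 fit over all libraries, and each library left out.

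The members and the lists by role were chosen with earlier results of these data known. Named were the 9 genes, up to 4 called genes per list and comparison with a mean CPM of at least 1, where none was called up to 2 of the most abundant, and the 3 genes most like each member (prior count 3), of which the text gives the first ones; Ucp1 and the pair of libraries set apart were chosen after their values were seen.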

Additional observations from a re-analysis of the deposited data

Results flagged for a closer look

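Of 54 sets of 4 libraries (9 genes in 6 groups), 2 held a library far from the other 3, by Dixon's gap ratio above 0.829. Chance gives about 5% of such sets, so a pair among 54 is no more than chance alone would give. In Ang II aortas at 6 months, Pnpla2 was at 915.1 CPM in replicate 4, and the nearest library was at 1257 CPM. Without that library the Ang II effect on Pnpla2 at 6 months was -0.01 on the log2 scale, against -0.12 with it. That library had 12605281 counts outside mitochondrial and ribosomal RNA, the fewest of the 24 libraries, and the lowest Pnpla2, Lipe and Mgll of its group; the part of this in the Pnpla2 value was not tested. In sham aortas at 6 months, Mgll was at 387.6 CPM in replicate 4, and the nearest library was at 306.2 CPM. The same sham library was also the highest of its group for Pnpla2 and Lipe.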

How the results depend on the processing

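Of 1134 values of the 9 genes under another setting, 1091 were counted as unchanged and 31 reversed. Another 11 passed where the reported value had not, and 1 moved by more than the replicate spread. Unchanged values kept their direction and, where the gene was tested, their side of the threshold. Hcar1 and Acvr1c in comparisons with the libraries that chose them were judged by direction and replicate spread alone. A crossed threshold is therefore not counted for them there. The cause of each change was not tested.

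Of the 7 genes taken for function, 0 were called at 2 months in the reported fit, and 1 in DESeq2 and in limma voom. Of the 9 genes at 4 months the number was 0, and 4 in DESeq2. Of the 7 in sham at 4 against 2 months it was 0, and 1 in DESeq2 and in limma voom. Of the 7 for the change of the effect from 2 to 4 months it was 0, and 1 in limma voom. Of the 9 for that from 4 to 6 months it was 0, 1 in DESeq2, and 0 to 1 with a library left out (1 without Ang II replicate 2 at 4 months).

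Some log2 fold changes turned their sign. With the adipocyte covariate Lipe, Mgll and Abhd5 were -0.084, -0.14 and -0.16 at 2 months, Adora1, Acvr1c, Mgll and G0s2 were -0.24, -0.28, -0.20 and 0.077 at 6 months, and the change of the Abhd5 effect from 2 to 4 months was 0.019. With no filter Acvr1c at 6 months was -0.0014, and with the replicate block -0.049. In limma voom Hcar2 in Ang II aortas at 4 against 2 months was 0.045 and the change of the Acvr1c effect from 4 to 6 months was 0.14. With a library left out, Abhd5 at 4 months ran from -0.13 to 0.017. At 6 months Adora1 ran from -0.11 to 0.21, Acvr1c from -0.14 to 0.17, Mgll from -0.045 to 0.33 and G0s2 from -0.29 to 0.23. In Ang II aortas at 4 against 2 months Hcar2 ran from -0.27 to 0.17 and Pnpla2 from -0.041 to 0.079, and the change of the Acvr1c effect from 4 to 6 months ran from -0.33 to 0.029.

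Counts over all genes moved more. At 2 months 297 genes were called, 727 in DESeq2 and 78 to 255 with a library left out (78 without sham replicate 1); at 4 months 114, 993 in DESeq2 and 0 to 674 (674 without sham replicate 4, 0 without sham replicate 1 or 2 or Ang II replicate 2, 3 or 4); at 6 months 0, and 63 in DESeq2. For sham at 4 against 2 months the count was 1, 852 in DESeq2 and 0 to 641 (641 without sham replicate 4 at 4 months).

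Same-numbered sham and Ang II libraries did not regularly deviate together: their correlations ran from -0.35 to 0.55, with both signs at each time. A pairing by number is thus not shown, and so few values cannot exclude it. The block changed no call of the 9 genes where they were tested, and turned the sign of Acvr1c at 6 months (-0.049). Over all genes it gave 208 calls at 2 months, 0 at 4 months and 140 for sham at 4 against 2 months. Depth limits Hcar2 most, with 127 counts in its lowest library. Of the counts outside mitochondrial and ribosomal RNA, Ang II replicate 4 at 6 months had the fewest of the 24 libraries, 12605281.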
